A study of Mus musculus with 13 samples.

Results

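The 10 glycolytic enzyme genes described here were Hk2, Gpi1, Pfkl, Aldoa, Tpi1, Gapdh, Pgk1, Pkm, Ldha and Ldhb, the isoforms that most tissues use, taken by name from the 34419 gene rows of the raw counts. For Aldoa, which has 2 rows under 1 name, the row with the higher mean count was used. Gluteal white adipose tissue (WAT) came from C57BL/6J mice kept from birth until 13 weeks of age at a room temperature of 22°C (7 mice) or at 29°C, thermoneutrality for a mouse (6 mice). All 13 mice, at both temperatures, had the hair of the hindquarters removed after weaning. Total RNA of each mouse gave 1 library, so that p-values rest on the spread between mice, and the sex of the mice was not used here. The comparison asked whether lifelong cool housing moved the transcripts of the glycolytic pathway in a subcutaneous fat depot, and how those transcripts followed muscle RNA, read from the skeletal muscle actin gene Acta1.

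Glycolysis splits glucose into pyruvate in the cytosol and yields ATP and NADH, and lactate dehydrogenase then turns pyruvate into lactate and restores NAD+. White adipocytes use the pathway both for energy and for the glycerol 3-phosphate on which triacylglycerols are built. Most steps are covered by several isoforms: skeletal muscle has its own phosphofructokinase (Pfkm), phosphoglycerate mutase (Pgam2) and enolase (Eno3), but shares aldolase A, GAPDH, phosphoglycerate kinase 1, the pyruvate kinase gene Pkm and lactate dehydrogenase A with other tissues, and makes them in large amounts.

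Many glycolytic promoters carry the core that hypoxia-inducible factors bind. For 6 members 1 window each is shown, because these genes moved differently across the mice, as given further on. Aldoa, Gapdh and Pgk1 rose with Acta1, Ldha was high in muscle-rich mice and in 1 mouse with little muscle RNA, and Ldhb and Pfkl followed Acta1 little. All 6 windows shown hold a core, which not every window of the members did. Each window is the 250 bases before an annotated transcription start in RefSeq on GRCm38.p6, which is not the build of the counts, written 5′ to 3′ on the strand of the gene. Capitals mark the cores ACGTG and GCGTG on either strand, so that a match on the other strand reads CACGT or CACGC.
Aldoa (chr7:126799179-126799428, minus strand): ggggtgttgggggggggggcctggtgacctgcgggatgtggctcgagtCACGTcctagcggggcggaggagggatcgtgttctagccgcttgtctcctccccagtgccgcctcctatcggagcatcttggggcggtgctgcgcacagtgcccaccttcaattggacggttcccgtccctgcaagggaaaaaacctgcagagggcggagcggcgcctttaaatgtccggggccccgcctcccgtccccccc
Gapdh (chr6:125165774-125166023, minus strand): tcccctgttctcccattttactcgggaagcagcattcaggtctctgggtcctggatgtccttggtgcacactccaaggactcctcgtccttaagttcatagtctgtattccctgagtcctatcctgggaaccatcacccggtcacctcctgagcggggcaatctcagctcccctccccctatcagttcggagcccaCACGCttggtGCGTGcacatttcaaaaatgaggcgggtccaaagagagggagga
Pgk1 (chrX:106186850-106187099, plus strand): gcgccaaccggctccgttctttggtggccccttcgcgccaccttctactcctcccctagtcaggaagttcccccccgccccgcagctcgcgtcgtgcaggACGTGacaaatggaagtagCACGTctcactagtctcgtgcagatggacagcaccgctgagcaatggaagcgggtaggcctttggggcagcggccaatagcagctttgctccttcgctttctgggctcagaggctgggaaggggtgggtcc
Ldha (chr7:46845554-46845803, plus strand): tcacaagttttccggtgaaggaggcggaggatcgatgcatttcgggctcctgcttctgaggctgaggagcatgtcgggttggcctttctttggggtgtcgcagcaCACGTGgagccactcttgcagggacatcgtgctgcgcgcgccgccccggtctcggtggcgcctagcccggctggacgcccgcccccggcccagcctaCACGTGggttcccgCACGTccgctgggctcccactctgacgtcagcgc
Ldhb (chr6:142507958-142508207, minus strand): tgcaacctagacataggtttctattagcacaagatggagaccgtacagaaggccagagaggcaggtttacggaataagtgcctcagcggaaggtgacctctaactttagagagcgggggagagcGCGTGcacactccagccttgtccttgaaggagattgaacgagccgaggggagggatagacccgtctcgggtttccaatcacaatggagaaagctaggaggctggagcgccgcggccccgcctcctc
Pfkl (chr10:78009808-78010057, minus strand): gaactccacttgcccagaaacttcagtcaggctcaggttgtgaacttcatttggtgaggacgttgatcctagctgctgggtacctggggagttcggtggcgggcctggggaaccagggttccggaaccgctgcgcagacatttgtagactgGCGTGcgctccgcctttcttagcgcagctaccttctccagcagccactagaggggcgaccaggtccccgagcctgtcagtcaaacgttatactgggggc
Of 14 windows found for the 10 members, 6 windows in 5 members held ACGTG, against 16.6% of 32851 windows of this length in all genes. Among the 6, windows 2 and 3 of Aldoa overlap and hold the same match. GCGTG stood in 4 windows of 4 members, against 28.2% of all windows. Either core stood in 10 of the 14 windows, against 38.6% of all windows. By gene, 8 of the 10 members had it in at least 1 window, a count for which no share over all genes was computed. Neither core stood in the windows of Gpi1 and Tpi1 or in window 1 of Aldoa and of Pkm. Aldoa had 3 windows and Ldha 2, of which 1 each is shown. The first Ldha window held 5 matches, in which the palindrome CACGTG counts on both strands. The E-box CANNTG, which overlaps the core ACGTG in CACGTG, stood in 10 windows of 7 members (66.2% of all windows). CTA and TAG with any 4 bases between them is a looser pattern than the core of MEF2 factors, whose middle holds only A or T. This loose pattern stood in the Ldhb window alone among members (3.2% of all windows). Its matches there had GACA and ACTT in the middle, so neither was the A/T core. These matches describe the letters of the windows, and their link to the levels of the genes was not tested.

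The 13 libraries held 22356637 to 25245785 counts, and a level is given as CPM, the counts of a gene scaled to a common library size by the trimmed mean of M-values (TMM). The adipocyte markers were all detected and summed to 31360 to 47630 CPM at 22°C and 35390 to 48330 CPM at 29°C, as the label of the tissue has it. A list of 22 skeletal muscle markers summed to 969 to 98850 CPM at 22°C and to 178 to 7917 CPM at 29°C, with 21 of them above 0 in all 13 libraries. Acta1 itself had 14968 CPM in 22°C replicate 1 and 13549 CPM in 22°C replicate 7, 173 to 3775 CPM in the other 22°C mice and 72.0 to 1584 CPM at 29°C. By edgeR's quasi-likelihood test Acta1 was not called between temperatures (log2 fold change 2.93, SE 1.23, P-adj = 0.227), while DESeq2 called it higher at 22°C (2.94, P-adj = 0.0494). Without those 2 mice it was 0.84 (edgeR P-adj = 0.743). The 2 muscle-rich libraries therefore stand apart from the other 11, and fold changes and slopes of the members are given with and without them where they rest on them, a choice made after seeing the data.

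The 10 enzymes took 1.32% and 1.41% of all counts in 22°C replicates 1 and 7. They took 0.406% to 0.569% in the other 22°C mice and 0.343% to 0.534% at 29°C. Compared per kilobase of merged exon, the order of the levels at 29°C ran from Aldoa (471 ± 122 CPM per kb, SD, n = 6) down to Pfkl (13.1 ± 3.30). Ldha (241 ± 69.4 CPM per kb) lay above Gapdh (170 ± 49.7) in 6 of 6 mice at 29°C, but in only 4 of 7 at 22°C. Tpi1 followed at 136 ± 35.3, Pkm at 62.8 ± 11.3 and Gpi1 at 45.7 ± 4.54 CPM per kb, and each of these 3 kept its place between its neighbours in every mouse. Below them Pgk1 (29.0 ± 5.88), Ldhb (25.5 ± 3.23) and Hk2 (24.9 ± 7.72) did not separate beyond their spread, with Pgk1 over Ldhb in 4 of 6 mice at 29°C and Ldhb over Hk2 in 5 of 6. By this measure Pfkl was the lowest of the 10 and Aldoa the highest. The merged length counts every annotated exon of a gene, so the order depends on the annotation. In CPM at 29°C, Aldoa was again highest (1372 ± 355), but Ldhb was lowest (40.0 ± 5.07), below Pfkl (87.4 ± 22.1).

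**Figure D1:**
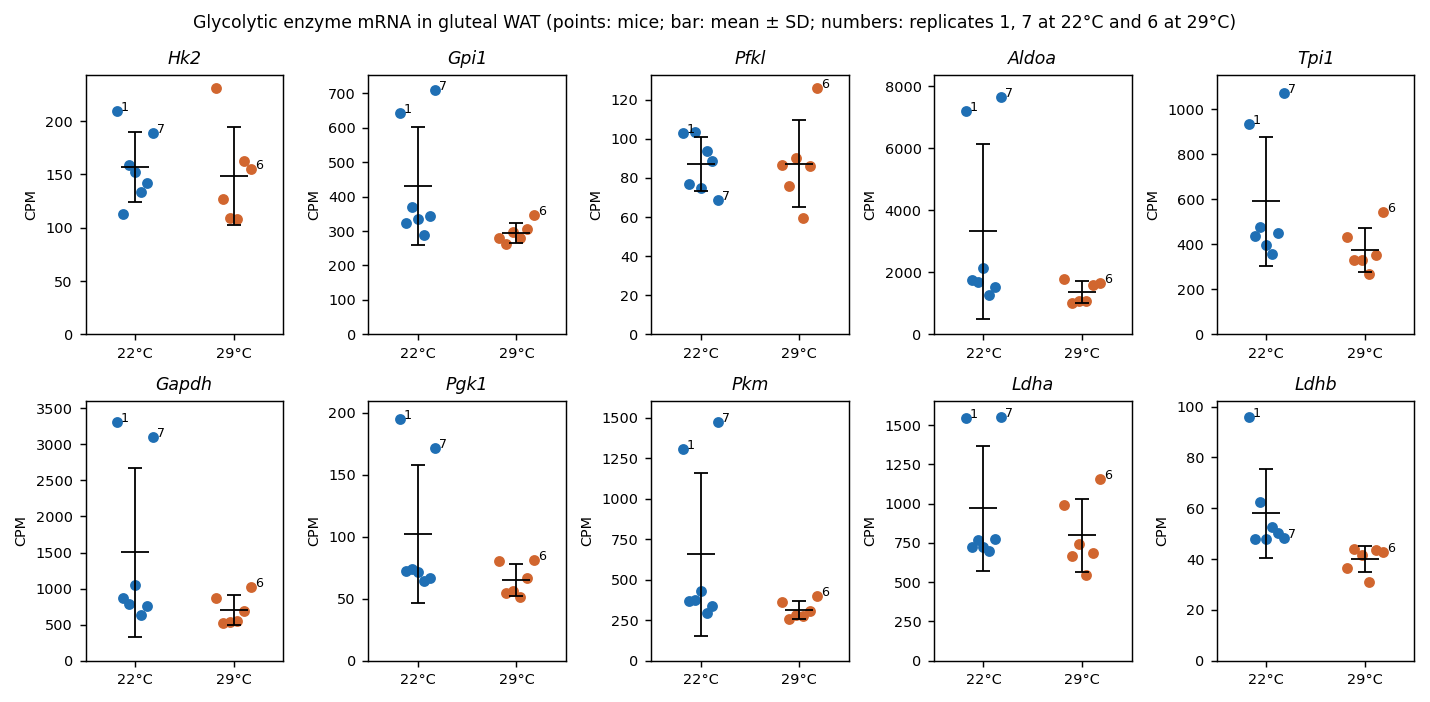
Level of each enzyme gene in CPM (vertical axis, from 0) in 7 mice at 22°C (blue) and 6 mice at 29°C (orange), with mean ± SD, and digits naming 22°C replicates 1 and 7 and 29°C replicate 6. For Gpi1, Aldoa, Tpi1, Gapdh, Pgk1, Pkm and Ldha, 22°C replicates 1 and 7 sit above all 11 other mice, while the Ldhb groups do not overlap.

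Between the temperatures, no member passed the test over all genes, in which 1.94% of 17779 genes tested were called at P-adj below 0.1. All 10 members were tested, 9 of 10 had a higher estimate at 22°C (51.6% of all genes did), and the median log2 fold change over the members was 0.60, against 0.0074 over all genes. At an unadjusted p below 0.05, 7 of the 10 were higher at 22°C, where 10.3% of all genes were (18.5% in either direction), and DESeq2 called 2 of 10, Gpi1 (P-adj = 0.0987) and Ldhb (P-adj = 0.0392), against 10.2% of the genes to which it gave a P-adj. Without 22°C replicates 1 and 7, 0 of 10 were called by edgeR (1.47% of all genes) and the median of the members was 0.17. In whole tissue, more RNA per cell and more cells of a type that uses a gene cannot be told apart.

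At the first steps of the pathway the groups overlapped. Hk2, the insulin-responsive hexokinase that phosphorylates glucose, ranged from 113 to 210 CPM at 22°C (median 152) and from 108 to 231 CPM at 29°C (median 141). The highest and the lowest mouse were both at 29°C, replicates 1 and 4, and the log2 fold change was 0.08 (SE 0.19, edgeR P-adj = 0.861). Gpi1, which converts glucose 6-phosphate to fructose 6-phosphate, had 288 to 709 CPM at 22°C (median 342) and 262 to 345 CPM at 29°C (median 288). Its highest levels were 709 and 643 CPM in 22°C replicates 7 and 1, and 29°C replicate 6 reached 345 CPM, more than 4 of the 7 mice at 22°C (log2 fold change 0.55, SE 0.21, edgeR P-adj = 0.203). Without 22°C replicates 1 and 7 the log2 fold change was 0.17 (P-adj = 0.389).

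Pfkl, the liver-type subunit of phosphofructokinase, which makes the committed step of glycolysis, had 69.0 to 103 CPM at 22°C (median 88.6) and 59.3 to 126 CPM at 29°C (median 86.2). Its log2 fold change was -0.0042 (SE 0.15, edgeR P-adj = 0.993), and both the lowest and the highest mouse were at 29°C, replicates 4 and 6. Here the muscle-rich mice did not go together: 22°C replicate 1 had 103 CPM and 22°C replicate 7 had 69.0 CPM, the lowest of the 22°C mice.

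Aldoa, which cleaves fructose 1,6-bisphosphate, showed the widest spread of the 10, from 1259 to 7668 CPM at 22°C (median 1761) and from 1001 to 1800 CPM at 29°C (median 1345). The 2 highest values were 7668 and 7210 CPM in 22°C replicates 7 and 1, and the next highest mouse, 22°C replicate 4, had 2143 CPM. The log2 fold change of 1.28 had an SE of 0.46 and did not pass the test (edgeR P-adj = 0.185), and without those 2 mice it was 0.29 (P-adj = 0.517). The unused second Aldoa row held 9 to 737 counts per library, and 8 pseudogene rows of Aldoa, Gapdh, Pgk1 and Ldha held at most 12 counts each, although it is not given in the sources used here how reads that match several places were counted.

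Tpi1, the isomerase that interconverts the 2 triose phosphates, ranged from 358 to 1072 CPM at 22°C (median 451) and from 266 to 542 CPM at 29°C (median 343). Again 22°C replicates 7 and 1 led, followed by 29°C replicate 6, and the log2 fold change was 0.65 (SE 0.28, edgeR P-adj = 0.236), or 0.17 without the first pair (P-adj = 0.666). Gapdh, the dehydrogenase that makes the NADH of the pathway and a gene often used as a reference in qPCR, had 639 to 3305 CPM at 22°C (median 868) and 525 to 1024 CPM at 29°C (median 624). Across the 13 mice Gapdh thus spanned 6.29-fold and Aldoa 7.66-fold, against 2.13-fold for Hk2 and for Pfkl. The log2 fold change of Gapdh was 1.10 (SE 0.42, edgeR P-adj = 0.203) and 0.22 without 22°C replicates 1 and 7 (P-adj = 0.641).

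Pgk1, the first enzyme of the pathway that makes ATP, had 64.2 to 195 CPM at 22°C (median 72.3) and 51.5 to 81.0 CPM at 29°C (median 61.6). It was even across the other 5 mice at 22°C, 69.7 ± 4.09 CPM, and 2.79 and 2.46 times that mean in replicates 1 and 7 (log2 fold change over all mice 0.65, SE 0.29, edgeR P-adj = 0.254, and 0.096 without those 2, P-adj = 0.763). Pkm, the pyruvate kinase gene whose M1 and M2 splice forms gene counts do not separate, had 295 to 1472 CPM at 22°C (median 375) and 255 to 402 CPM at 29°C (median 296). Its levels in 22°C replicates 1 and 7, 1307 and 1472 CPM, were 3.61 and 4.06 times the mean of the other 22°C mice, and the log2 fold change was 1.06 (SE 0.40, edgeR P-adj = 0.196), or 0.20 without them (P-adj = 0.511).

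The lactate dehydrogenase genes behaved differently from each other. Ldha, whose subunit prevails in muscle and favours lactate formation, had 700 to 1554 CPM at 22°C (median 767) and 544 to 1154 CPM at 29°C (median 714), with a log2 fold change of 0.28 (SE 0.25, edgeR P-adj = 0.589) that became -0.12 without 22°C replicates 1 and 7 (P-adj = 0.797). Ldhb, whose subunit prevails in heart and other oxidative tissues, had 95.8, 48.0, 62.6, 48.0, 52.7, 50.1 and 48.4 CPM in 22°C replicates 1 to 7. At 29°C it had 36.7, 44.1, 41.8, 31.1, 43.4 and 42.7 CPM in replicates 1 to 6. All 7 mice at 22°C lay above all 6 at 29°C, which 1.24% of all genes tested did in either direction, and no other member did so. The log2 fold change of 0.54 (SE 0.16) still did not pass edgeR's test over all genes (P-adj = 0.138), and without 22°C replicates 1 and 7 it was 0.39 (P-adj = 0.116). Library totals split the mice too: 22°C replicates 1 to 5 made up the group with lower totals, and in the 8 libraries with higher totals, 2 of them at 22°C, the log2 fold change of Ldhb was 0.29 (edgeR P-adj = 0.403) with both 22°C mice above the 6 at 29°C. With that split as a covariate over all 13 mice it was 0.30 (P-adj = 0.619). Of the other marker lists, the sum of 6 brown fat genes was also higher at 22°C without overlap, 19.0 to 66.7 CPM against 3.86 to 9.90 CPM. Of these genes, 4 of the 6 were above 0 in all libraries, and Cidea alone did not overlap between the groups. Cox7a1 gave 30.0 and 42.8 CPM of the sum in 22°C replicates 1 and 7, against 1.62 to 8.35 CPM in the other 22°C mice. The defining Ucp1 had 0 to 0.369 CPM at 22°C and 0 in every mouse at 29°C. The part of brown fat cells in the Ldhb difference was not tested.

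Ldha counts were 92.5% to 97.0% of Ldha plus Ldhb at 22°C (mean 94.0% ± 1.44, SD, n = 7) and 93.8% to 96.4% at 29°C (94.99% ± 1.17, n = 6). The difference of -0.98 percentage points did not pass an exact two-sided permutation test over the 1716 splits of the mice (p = 0.202). The 2 muscle-rich mice again differed: the share was 94.2% in 22°C replicate 1, which had much of both genes, and 97.0% in replicate 7, the highest of all. Leaving out replicate 7 alone gave -1.47 points and leaving out both gave -1.60 points, each with an exact permutation p of 0.0173. Both subsets drop the mouse with the highest share, as seen in these same data, so these p-values are no test of the difference. In the 8 libraries with higher totals, 2 of them at 22°C, the direction turned, with 0.47 points more at 22°C (exact permutation p = 0.75).

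**Figure D2:**
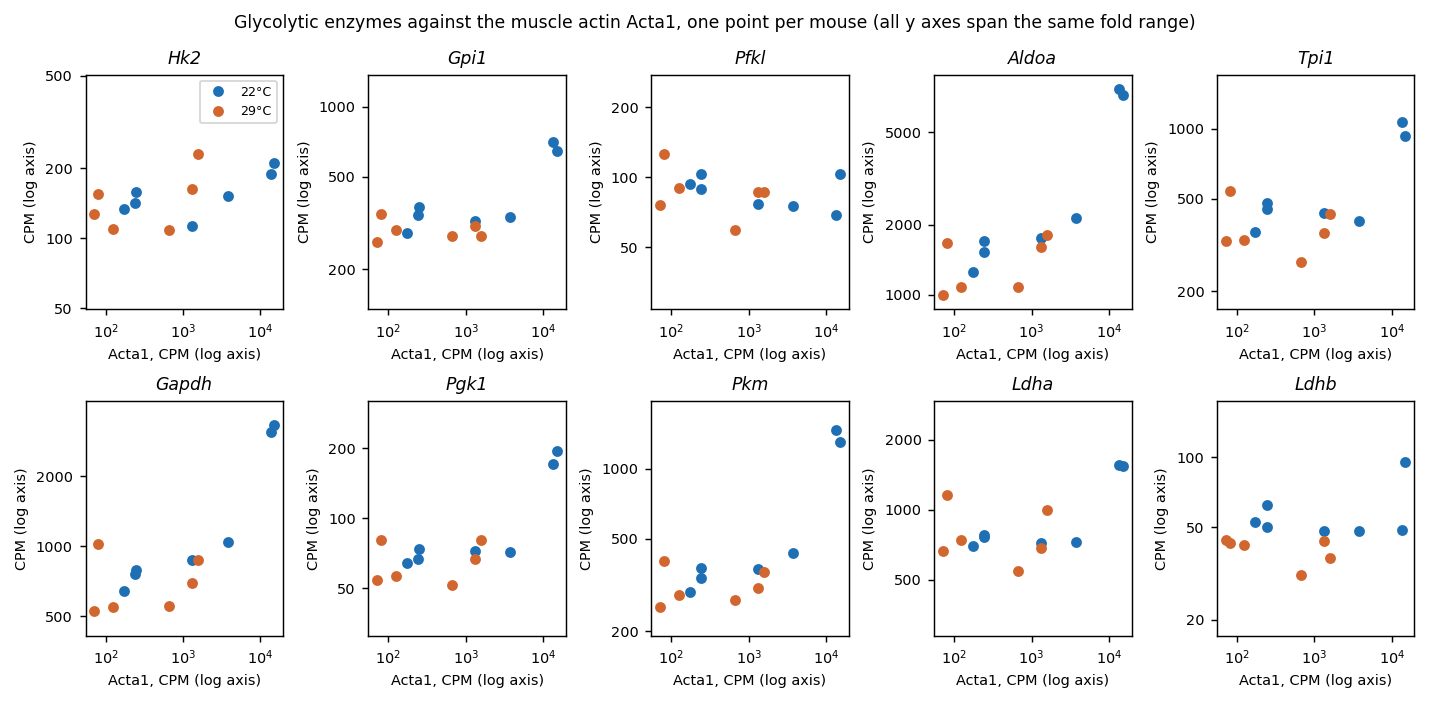
Level of each enzyme gene (vertical log axis, CPM) against the muscle actin Acta1 (horizontal log axis, CPM) in 13 mice, blue at 22°C and orange at 29°C; every vertical axis spans the same fold range. Aldoa, Gapdh and Pkm lie far up at the right in the 2 mice with the most Acta1. They span a narrower range elsewhere, where Aldoa ran from 1001 to 2143 CPM, whereas Pfkl and Ldhb are not raised in both of these 2 mice.

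Against Acta1, 4 of the 10 members rose with the log2 level of the muscle gene at equal temperature, where 6.7% of all genes did and 1.84% fell. Aldoa rose by 0.28 on the log2 scale per doubling of Acta1 (SE 0.057, edgeR P-adj = 0.00802), Gapdh by 0.24 (SE 0.060, P-adj = 0.0306), Pkm by 0.23 (SE 0.056, P-adj = 0.0269) and Pgk1 by 0.16 (SE 0.042, P-adj = 0.0414). The 6 others had slopes that did not pass, from 0.12 for Tpi1 (P-adj = 0.208) and 0.11 for Gpi1 (P-adj = 0.108) through 0.10 for Ldha and 0.08 for Hk2 to 0.02 for Ldhb (P-adj = 0.782) and -0.04 for Pfkl (P-adj = 0.528). The median slope of the members was 0.11, against -0.0024 over all genes. With the mean log2 level of the 22 muscle markers in place of Acta1, none of the 10 was called, and the 4 had P-adj of 0.114 (Aldoa), 0.239 (Gapdh), 0.19 (Pkm) and 0.212 (Pgk1) with slopes of 0.20, 0.16, 0.16 and 0.11.

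These slopes rested on the 2 muscle-rich mice. Within the 7 mice at 22°C, 7 members rose with Acta1 (6.46% of all genes), with Tpi1, Gpi1 and Ldha added to the 4 and slopes up to 0.36 for Aldoa (edgeR P-adj = 0.00582). Within the 6 mice at 29°C no member was called (0.429% of all genes), with slopes from -0.07 for Pfkl to 0.11 for Hk2, and Acta1 there spanned 72.0 to 1584 CPM. Without 22°C replicates 1 and 7 no member was called either (2.26% of all genes), and the slope was 0.10 for Aldoa (SE 0.044, P-adj = 0.508), 0.06 for Gapdh and 0.04 for Pkm. Whether the slopes differ between the temperatures was not tested.

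Set against Acta1 on a linear scale, an alternative chosen after seeing the data, 7 of 10 members rose, as did 12.2% of all genes. By ordinary least squares with temperature as a term, Aldoa gained 426 CPM per 1000 CPM of Acta1 (SE 25.3) over a level of 1099 CPM at 29°C without Acta1. Gapdh gained 177 CPM (SE 11.1) over 589 CPM and Pkm 75.2 CPM (SE 5.81) over 266 CPM. For Ldha the gain was 58.6 CPM (SE 11.2) over 760 CPM. Pfkl gained -0.318 CPM (SE 1.17) and Ldhb 1.47 CPM (SE 0.74). These gains and their SEs were set by 22°C replicates 1 and 7, since the next mouse had 3775 CPM of Acta1. Over the other 11 mice Aldoa gained 214 CPM (SE 74.0), Gapdh 86.0 CPM (SE 47.8), Pkm 25.4 CPM (SE 14) and Ldha -4.30 CPM (SE 53.3).

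**Figure D3:**
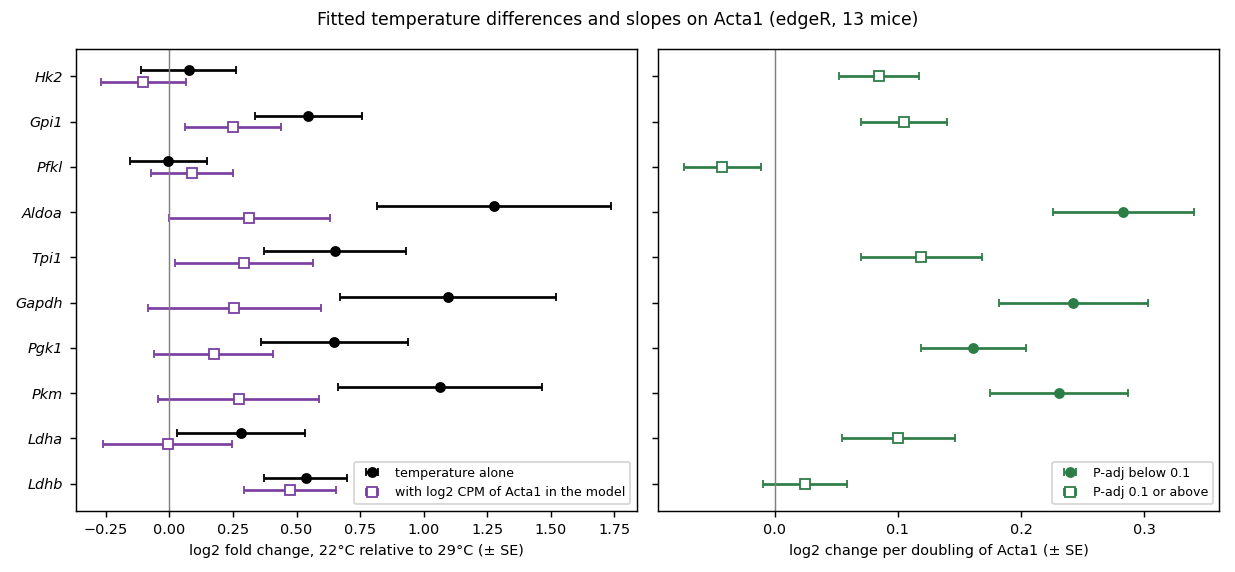
Left, log2 fold change of 22°C relative to 29°C (± SE) from edgeR for each enzyme gene over 13 mice, without (black circles) and with (violet squares) the log2 level of Acta1 in the model; right, log2 change per doubling of Acta1 (± SE), filled where P-adj is below 0.1. Aldoa falls from 1.28 to 0.31 once Acta1 is in the model, while Ldhb stays at 0.54 and 0.47.

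At equal Acta1 no member was called between the temperatures (0.472% of all genes were), and the median of the members was 0.25. Aldoa stood at 0.31 (SE 0.32, edgeR P-adj = 0.733), Gapdh at 0.25 (SE 0.34, P-adj = 0.810) and Pkm at 0.27 (SE 0.31, P-adj = 0.776). Each of these estimates was thus smaller than the corresponding value without Acta1 in the model and no larger than its own SE. Ldhb kept an estimate of 0.47 (SE 0.18), with an unadjusted p of 0.0211 and an edgeR P-adj of 0.304, and it was the 1 member under 0.05 before adjustment, as 6.25% of all genes were with the higher level at 22°C. Without 22°C replicates 1 and 7, a subset chosen after seeing the data, Ldhb was 0.42 with P-adj = 0.0926, the 1 member then called (0.947% of all genes). With the split of library totals as a further covariate over all mice, Ldhb was 0.24 at equal Acta1 (edgeR P-adj = 0.841).

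A second pattern among the members, seen in 29°C replicate 6, did not go with muscle RNA. At 29°C, replicate 6 had 81.1 CPM of Acta1, next to the lowest of all 13 mice, yet it led its group for Gpi1, Pfkl (126 CPM), Tpi1 (542 CPM), Gapdh (1024 CPM), Pgk1 (81.0 CPM), Pkm (402 CPM) and Ldha (1154 CPM). This is 1 library, and its high levels were not confined to the enzymes. Among the adipocyte markers it was highest of all 13 mice for Lpl (15186 CPM) and Retn (1857 CPM), but lowest at 29°C for Cfd (11316 CPM). Replicate 4 at 29°C, with 666 CPM of Acta1, was lowest of all 13 mice for 6 members. Replicate 2 at 29°C was lowest for the other 4, Gpi1, Aldoa, Gapdh and Pkm. Replicate 2 also had the lowest Acta1 of all 13 mice, 72.0 CPM, so low enzyme levels and little muscle RNA went together there. Over the 11 mice without 22°C replicates 1 and 7, the Pearson correlation of each member with the members' mean profile, to which each contributes itself, lay between 0.532 for Ldhb and 0.952 for Tpi1. Over all 13 mice it was 0.341 for Pfkl, 0.722 for Ldhb and 0.747 for Hk2 and 0.931 to 0.982 for the other 7, and among the 11 mice it was 0.792 for Pfkl, which was high with the others in 22°C replicate 1 and low in replicate 7. These correlations describe mice that share library preparation and scaling, and they carry no test.

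The muscle isoforms showed how far the 2 kinds of high library differed. All 7 tested genes of the muscle list rose with Acta1, among them Pfkm (0.68 per doubling, edgeR P-adj = 9.44e-07), Eno3 (0.91, P-adj = 1.38e-07), Pgam2 (1.01, P-adj = 2.04e-08) and Pygm, the muscle glycogen phosphorylase (1.01, P-adj = 3.76e-07), while 0 of the 7 were called between temperatures by edgeR. Without 22°C replicates 1 and 7 these 4 genes still rose, by 0.52, 0.87, 1.05 and 1.02, and of the 7 only Phkg1 lost its call (0.12, edgeR P-adj = 0.289). Per kilobase, Pfkm made up 92.8% and 96.3% of the 3 phosphofructokinase transcripts in 22°C replicates 1 and 7, and 21.1% in 29°C replicate 6. Eno3 made up 82.5% and 94.5% of the enolase transcripts in the former pair and 2.21% in the latter mouse. The phosphofructokinase and enolase steps in the muscle-rich mice were thus counted mostly under muscle genes, and those of 29°C replicate 6 mostly under Pfkl and Eno1. The other mice lay between, with Pfkm at 33.8% to 79.7% and Eno3 at 10.3% to 73.9%. By these shares per kilobase, muscle genes made up most of both steps also in 22°C replicates 2 and 4 and 29°C replicates 1 and 5. That reading depends on the exon lengths, which are longer for Eno1 (5379 bases) than for Eno3 (1739 bases). In CPM, Eno1 lay above Eno3 in 22°C replicates 2 (327 against 175) and 4 (264 against 248). The same held in 29°C replicates 1 (376 against 155) and 5 (282 against 131).

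**Figure D4:**
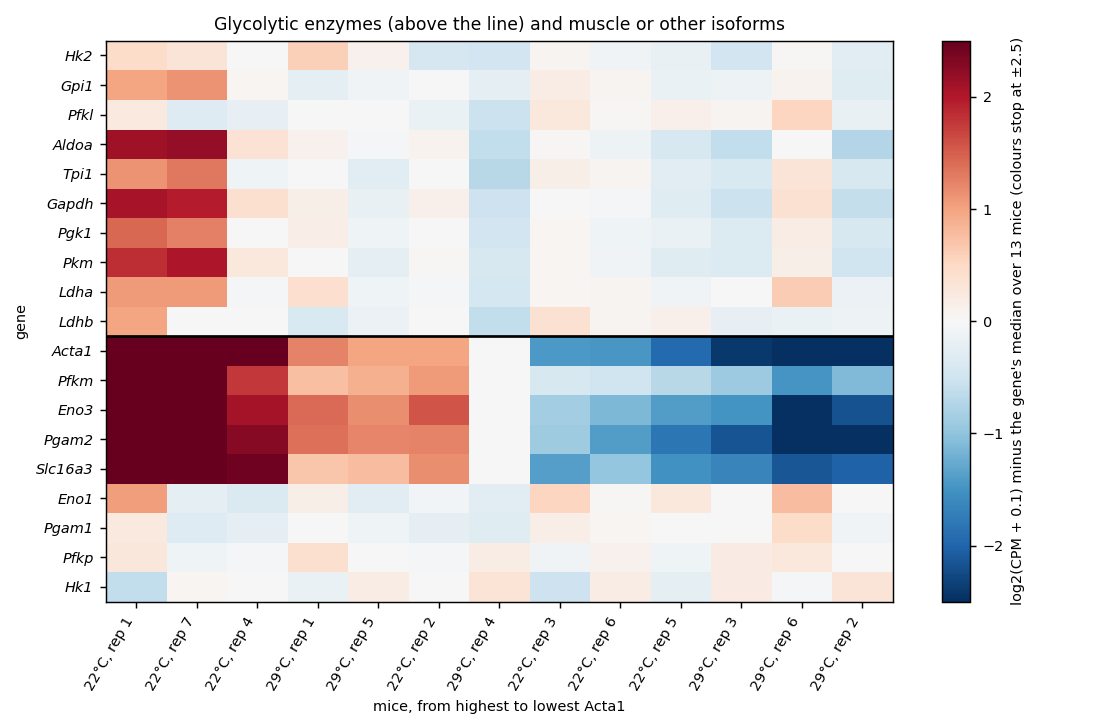
Level of the 10 enzyme genes (above the line) and of Acta1, muscle isoforms and other isoforms (below it) in each of 13 mice, as log2(CPM + 0.1) minus the median of the gene, with mice ordered from highest to lowest Acta1 and colours stopped at ±2.5. The 2 leftmost mice are high in Aldoa, Gapdh and Pkm with the muscle genes, and 29°C replicate 6 is high in Pfkl, Ldha and Eno1 with Acta1 near its lowest.

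Among the 14 other glycolytic enzymes listed, 10 could be tested, and 0 were called between temperatures by edgeR. Their most abundant members were Eno1, the common enolase (405 ± 153 CPM at 22°C and 366 ± 111 CPM at 29°C), Pgm1, which links glycogen to glycolysis (379 ± 149 and 289 ± 48.2 CPM), and Pfkp, the platelet-type phosphofructokinase (59.8 ± 6.34 and 67.3 ± 7.20 CPM). Eno1 split the muscle-rich mice in the way Pfkl and Ldhb did, with 705 CPM in 22°C replicate 1 and 291 CPM in replicate 7. Of the 5 germ cell isoforms, 2 could be tested, and the Aldoa retrogene Aldoart1 rose with Acta1 (0.30 per doubling, P-adj = 0.0170) at 11 to 76 counts per library, a gene near identical to Aldoa that may share its reads. Without 22°C replicates 1 and 7 its slope was 0.07 (P-adj = 0.825).

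Of 14 genes of glucose and lactate transport and of glycolytic control, all were tested and 0 were called between temperatures by edgeR. Slc16a3, the lactate exporter MCT4 of glycolytic muscle, rose by 0.81 per doubling of Acta1 (P-adj = 7.48e-09), and Tigar, a fructose bisphosphatase that opposes glycolysis, rose by 0.22 (P-adj = 0.00422). Without 22°C replicates 1 and 7, Slc16a3 still rose by 0.79 (P-adj = 3.65e-06), and the slope of Tigar was 0.08 (P-adj = 0.219). The most abundant genes of this list gave other values: Pfkfb3, which makes the activator of phosphofructokinase, had 822 ± 198 CPM at 22°C and 665 ± 149 CPM at 29°C (log2 fold change 0.31, edgeR P-adj = 0.392). Slc2a4, the insulin-regulated glucose transporter GLUT4, had 357 ± 75.3 and 334 ± 45.8 CPM (P-adj = 0.756), and Bsg, the chaperone of lactate transporters, 304 ± 66.0 and 283 ± 27.4 CPM (P-adj = 0.710).

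The 5 non-members nearest to the mean profile of the enzymes over 13 mice were Timm23, of the mitochondrial import channel (Pearson r = 0.985), Ndufb5 (0.983) and Ndufb11 (0.975) of respiratory complex I, Rtn4, of the endoplasmic reticulum (0.983), and Idh3b, of the citric acid cycle (0.982). Over the 11 mice without 22°C replicates 1 and 7 the same 5 had r between 0.918 and 0.954. They were picked for this likeness, and the values are a description.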

How the data were processed

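RNA-seq of gluteal WAT was analysed in 7 mice at 22°C and 6 at 29°C, grouped by sample title. Per the labels and the study's methods, the authors aligned reads with STAR 2.7.5a and assigned them with featureCounts; the processing notes name GRCm39, while annotation release and strand setting are not given in the sources used here. The deposited raw counts per gene entered all main tests, and the deposited regularized log2 values of DESeq2, made by the authors, entered 1 alternative. No column of per-sample values was left unused (0).

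Counts were fitted with edgeR 4.0.16 (R 4.3.3; TMM, filterByExpr, quasi-likelihood F test, Benjamini-Hochberg over 17779 genes), called at P-adj below 0.1, the threshold of the study. SE is the absolute log2 fold change over the square root of F. The Acta1 model held temperature and log2 CPM of Acta1 (prior count 2). Symbols were matched by gene ID for 34006 of 34419 rows, and exon lengths came from GENCODE M21. Scripts were tested on simulated counts. DESeq2 1.42.0, limma 3.58.1, other scalings, filters, covariates and libraries left out were alternatives. Genes named were the 10 members, Acta1, genes of 4 pathway lists that passed a test or were among the 3 most abundant of their list, and the 5 nearest non-members; 1 such result is not reported here. The members and lists were chosen with earlier results of these data known. Libraries were distinct: among 78 pairs the lowest chi-square per gene was 16.9. Depth of 22356637 to 25245785 counts puts 1 count at 0.0376 to 0.0527 CPM; every member had at least 828 counts in each library, so spread between mice, not counting error, limits precision.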

Additional observations from a re-analysis of the deposited data

Results flagged for a closer look

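Of 24 groups of values examined (the 10 members, Acta1 and the Ldha share at each temperature), 2 held a mouse far from the rest of its group by Dixon's test at 95%, where chance gives about 1 in 20. Ldhb stood at 6.583 on the log2 CPM scale in 22°C replicate 1, with the next mouse at 5.969 and the lowest at 5.587, a gap of 0.616 of the range (limit 0.568). The Ldha share stood at 96.98% in 22°C replicate 7, with the next mouse at 94.16% and the lowest at 92.45%, a gap of 0.623 of the range. Acta1 was 14968 and 13549 CPM in these 2 mice, and the part of muscle RNA in either value was not tested.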

How the results depend on the processing

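The number of genes called between temperatures (345) was 40 at P-adj below 0.05, 1676 by DESeq2, 42 without the filter on low counts, 41 with the muscle score (mean log2 level of the muscle list) as a covariate, 4 with the split of library totals as a covariate and 8 in the 8 libraries with higher totals; leaving out 1 library gave 32 to 652. Members called between temperatures stayed at 0 in every one of these except DESeq2 (2). Members called against Acta1 (4) were 0 with the muscle score in place of Acta1, 0 in the libraries with higher totals, 7 in the 22°C mice, 0 in the 29°C mice, 7 with Acta1 on a linear scale, 0 without 22°C replicates 1 and 7, and 1 to 7 with 1 library left out: 1 without 22°C replicate 1, 1 without 22°C replicate 7 and 7 without 29°C replicate 6. At equal Acta1 the count of 0 became 1 without both muscle-rich mice. The causes of these shifts were not tested.

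Some estimates changed sign. Between temperatures, Hk2 was -0.12 and Pfkl 0.15 with the muscle score, when Acta1 was -0.43; Hk2 was -0.092, Pfkl 0.00049 and Ldha -0.12 without 22°C replicates 1 and 7; Pfkl was 0.011 by limma on log2 values. At equal Acta1, Pfkl was -0.049 and Ldha 0.22 with the split of totals, and Ldha 0.048 with the muscle score in place of Acta1. Slopes of Gpi1, Tpi1, Ldha and Ldhb were -0.013, -0.033, -0.030 and -0.044 in the 29°C mice and -0.0077, -0.026, -0.024 and -0.049 without the 2 muscle-rich mice, and that of Ldhb was -0.028 in the libraries with higher totals. The difference in Ldha share was 0.47 points in the libraries with higher totals (exact permutation p = 0.75). It was -1.60 without both muscle-rich mice (exact permutation p = 0.0173), a subset that drops the highest share, and -1.47 to -0.69 with 1 library left out. With 1 library left out, log2 fold changes ranged from -0.0073 to 0.24 for Hk2 and from -0.094 to 0.13 for Pfkl, slopes from -0.039 to 0.042 for Ldhb, and values at equal Acta1 from -0.20 to 0.074 for Hk2, -0.014 to 0.17 for Pfkl and -0.15 to 0.13 for Ldha.

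Same-numbered mice of the temperatures correlated in their deviations at 0.0508 to 0.513, with 5 of the 6 pairs at 0.348 or more and 6 of 12 libraries closest to their own number, a hint of pairing from the data. The labels name nothing that same-numbered mice share and 1 pair lay under 0.1, so no block stood in the fits of the report. With the replicate number as a block, 214 genes and 0 members were called between temperatures, 0 members against Acta1 and 0 at equal Acta1, although the slopes of Aldoa, Gapdh, Pkm and Pgk1 were 0.24, 0.19, 0.16 and 0.12; Pfkl was then 0.071 between temperatures with a slope of 0.0023, and Hk2 0.012 and Ldha 0.033 at equal Acta1.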
